A study of Homo sapiens with 8 samples.

Results

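The set described here holds 8 genes of sterol and fatty acid synthesis, namely the transcription factor genes SREBF1 and SREBF2, the sterol sensor gene INSIG1, the sterol synthesis genes HMGCS1 and SQLE, and the fatty acid genes ACACA, FASN and SCD. Its members are the m6A peaks that the deposited lists assign by name to any of these genes. Such peaks numbered 5 of 15730 in the list of control cells and 5 of 13219 in the list of DF2 siRNA cells, and they lay in 4 of the 8 genes. RNA of the cytoplasm was taken from U2OS cells, a human osteosarcoma line, with control treatment or siRNA against DF2 (YTHDF2), a cytoplasmic reader protein that binds m6A in mRNA and promotes its decay. After fragmentation, an antibody enriched the pieces that carry N6-methyladenosine (m6A). The 8 libraries were 4 groups of 2, with input RNA and immunoprecipitated RNA from control and from DF2 siRNA cells. The labels number the libraries of a group without saying whether they came from separate cultures or, for DF2, from different siRNAs. Each condition has 1 peak list for both of its immunoprecipitates, so values of single libraries and library depth are unknown, and differences between conditions have no replicate check and no test.

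Cells make cholesterol and fatty acids from acetyl-CoA. When sterols run low, the precursor proteins SREBP-1 and SREBP-2, encoded by SREBF1 and SREBF2, leave the endoplasmic reticulum with their escort SCAP, are cut by the proteases encoded by MBTPS1 and MBTPS2, and switch on the genes of both pathways. INSIG1 holds SCAP and its cargo back when sterols are plentiful. m6A is placed on mRNA mainly around stop codons and in long exons, and antibodies against it also recognise the related modified adenosine next to the cap, which peak lists do not separate.

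Of the 8 genes, SREBF1, HMGCS1, SQLE and ACACA carried a peak in both lists. SREBF2, INSIG1, FASN and SCD had no peak in either, and none of the 8 had a peak in 1 list only. By comparison, 31.6% of the 20056 protein-coding genes of RefSeq had a peak under their name in both lists. For control only the share was 5.62%, and for DF2 siRNA only it was 2.34%. A control peak was found in 37.2% of these genes, and of all genes with a control peak 79.7% also had a DF2 siRNA peak. The comparison includes genes that these cells may not express. A peak in these lists is made of 1 or more exonic blocks, and ACACA was the only gene of the set with 2 peaks per list. The map of peak blocks shows the largest block near the 5′ end of the gene for SREBF1, SQLE and the 5′ peak of ACACA. In HMGCS1 it began at 14.4 kb of a gene of 25.9 kb, and the other ACACA peak lay at the 3′ end.

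**Figure D1:**
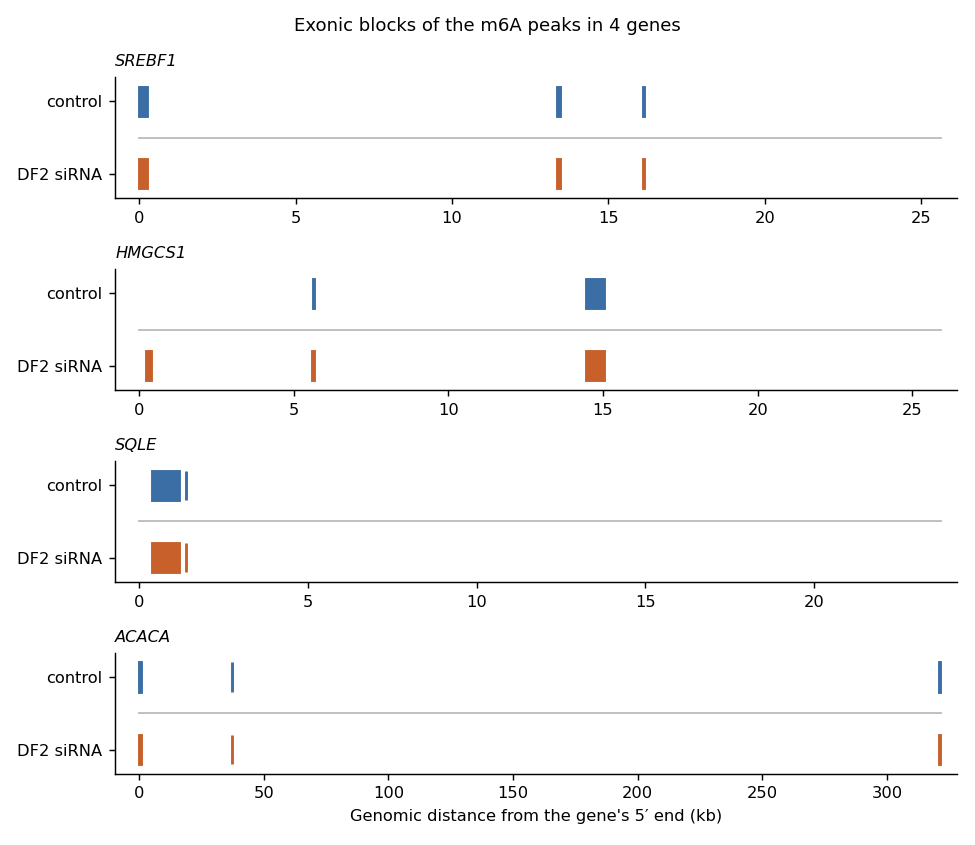
Exonic blocks of the m6A peaks of SREBF1, HMGCS1, SQLE and ACACA, drawn at their genomic distance in kb from the 5′ end of the RefSeq gene, for the control list (blue, upper row) and the DF2 siRNA list (orange, lower row). The grey line is the length of the gene, and blocks have an outline of fixed width so that the smallest remain visible. In SREBF1 and SQLE the blocks are the same in both lists, and in HMGCS1 the DF2 siRNA peak has a further block at 0.231 to 0.39 kb.

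The peaks of 3 genes covered bases within the first 50 after a RefSeq transcription start, and bases there are shown because reference sequence was at hand for that part of the peaks. Each line gives 30 bases of the sense strand from RefSeq (GRCh38.p14) that lie within the first 50 bases after a start and inside a peak. Capitals mark GGAC or GAAC, 4-letter cores of the sequence context in which m6A is placed, searched on the sense strand only. Both cores were chosen after these windows were seen, and other cores were not searched, so the matches are no test.
SREBF1: agtttccgagGAACttttcgccggcgccgg
HMGCS1: gttccctcgtgagGGACctgaggccgaccg
ACACA: gtggaggcccccgccgggtgctgagcgccc
The SREBF1 bases are chr17:17836957-17836986 (minus strand) and were inside the peak of both lists. The HMGCS1 bases are chr5:43313152-43313181 (minus strand), begin at an internal start of the gene and were inside the DF2 siRNA peak only. The ACACA bases are chr17:37406787-37406816 (minus strand), were inside the peak of both lists and hold neither core. Among all 35116 RefSeq start windows of 50 bases, 18.9% hold GGAC and 12.8% hold GAAC, and these 2 letter strings do not overlap each other. These shares are for whole windows, which are longer than the 30 bases printed, so they are no rate for the printed matches. A match is a description of the letters and does not locate a methylated base. For 2 of the 8 genes, SQLE and FASN, no start window was used.

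SREBF1 encodes SREBP-1, which mainly drives genes of fatty acid synthesis. Its peak had 400 nt of exonic sequence in 3 blocks and was identical in both lists (chromosome 17, 17820842 to 17837002, hg38, minus strand). The blocks were 276 nt at the start of the gene, beginning 16 bases upstream of the RefSeq 5′ end, 101 nt at 13.4 kb and 23 nt at 16.1 kb into a gene of 25.7 kb. The authors labelled the peak 5′ UTR and coding. Its deposited fold enrichment, a ratio per peak whose reference is not given, was 10.4 in the control list and 17.3 in the DF2 siRNA list. The first value stood at percentile 20.2 of all control peaks and the second at percentile 49.0 of all DF2 siRNA peaks. In control cells this was a peak near the limit of the list, with a deposited −log10 p-value of 1.38 against a minimum of 1.30. In DF2 siRNA cells the deposited −log10 FDR was 3.25, and the 2 statistics are not on the same footing. The deposited score, a whole number without a stated meaning, was 286 in control and 146 in DF2 siRNA, at percentiles 64.3 and 65.8. Fold enrichment thus placed SREBF1 among the weaker control peaks while the score placed it above the median of that list.

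No peak carried the name of SREBF2, which encodes SREBP-2, the main activator of cholesterol synthesis genes, and no peak lay in it or within 5 kb of its ends (chromosome 22, 41833105 to 41907305). INSIG1 (chromosome 7, 155297878 to 155310235) had no peak either, but peaks of the neighbouring gene AC144652.1 lay just upstream of it on the opposite strand. These were 3 peaks in control, the nearest 337 bases from INSIG1, and 2 in DF2 siRNA, the nearest at the same interval (155297342 to 155297541). They were weak, with fold enrichments of 6.83 to 12.7 and scores of 14 to 25 in control, and with 5.46 to 6.40 and 6 to 8 in DF2 siRNA.

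HMGCS1 encodes the cytosolic enzyme that joins acetyl-CoA and acetoacetyl-CoA to HMG-CoA, early in cholesterol synthesis. Its control peak (chromosome 5, 43298395 to 43307784, minus strand) had 600 nt in 2 blocks, 19 nt at 5.63 kb and 581 nt at 14.4 kb from the 5′ end of the gene. The DF2 siRNA peak (43298395 to 43313181) shared all 600 nt and held 200 nt more. These lay in a further block of 160 nt whose 5′ end was exactly the internal RefSeq start and in 40 nt added to the small block. The authors labelled both peaks 5′ UTR, coding and stop codon. The 3′ end of both peaks was 10.9 kb away from the 3′ end of the RefSeq gene, and the transcript behind the stop codon label is unknown. Fold enrichment was 38.3 with a score of 1030 in control and 24.7 with a score of 230 in DF2 siRNA. Within their lists these peaks stood at percentiles 71.4 and 63.3 by fold enrichment and at 88.2 and 76.0 by score. The wider peak of the DF2 siRNA list therefore had the lower standing within its list on both scales.

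SQLE encodes squalene epoxidase, a rate-limiting oxygenase of cholesterol synthesis. Its peak had 800 nt and the same blocks in both lists (chromosome 8, 124998897 to 124999901, plus strand), with 798 nt that began 392 bases after the 5′ end of the gene and a further block of 2 nt at 1.40 kb. It was labelled 5′ UTR and coding. The remaining 22.4 kb of the gene carried no peak in either list. Fold enrichment was 59.6 with a score of 2751 in control, and 48.7 with a score of 683 in DF2 siRNA. SQLE had the highest score of the set in both lists, at percentile 97.6 in control and 92.9 in DF2 siRNA. By fold enrichment it stood at percentiles 84.5 and 85.0.

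ACACA encodes acetyl-CoA carboxylase, which makes malonyl-CoA, the building unit of fatty acids. Its 5′ peak had 600 nt and was identical in both lists (chromosome 17, 37369445 to 37406818, minus strand), with 557 nt beginning 18 bases inside the gene and 43 nt at 37.3 kb. Labelled 5′ UTR and coding, it was listed at a fold enrichment of 55.9 (score 219) in control and 65.7 (score 130) in DF2 siRNA. The second value stood at percentile 91.6 of the DF2 siRNA list, the highest standing of the set there by fold enrichment, against percentile 82.6 in the control list. The scores stood lower, at percentiles 58.6 and 63.2. The 3′ peak lay at the other end of the 322 kb gene, labelled 3′ UTR. It had 400 nt in control (37085596 to 37085995) and 600 nt in DF2 siRNA (37085396 to 37085995), with the 400 nt shared. It was the weaker of the 2 peaks by fold enrichment, at 11.3 in control (percentile 25.0) and 15.1 in DF2 siRNA (percentile 42.6). Its scores were 247 and 141, above those of the 5′ peak in both lists, so fold enrichment and score ranked the 2 peaks of ACACA in opposite order.

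FASN, the gene of fatty acid synthase, and SCD, that of the desaturase which puts a double bond into saturated fatty acids, had no peak in either list. No peak lay within 5 kb of SCD (chromosome 10, 100347233 to 100364826). Near FASN (chromosome 17, 82078338 to 82098236) the nearest was a minus strand peak of CCDC57, 3224 bases away in both lists, with fold enrichments of 19.0 (control) and 17.5 (DF2 siRNA). Peak lists give no level of input RNA, so for the 4 genes without a peak low abundance and absent methylation cannot be told apart.

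**Figure D2:**
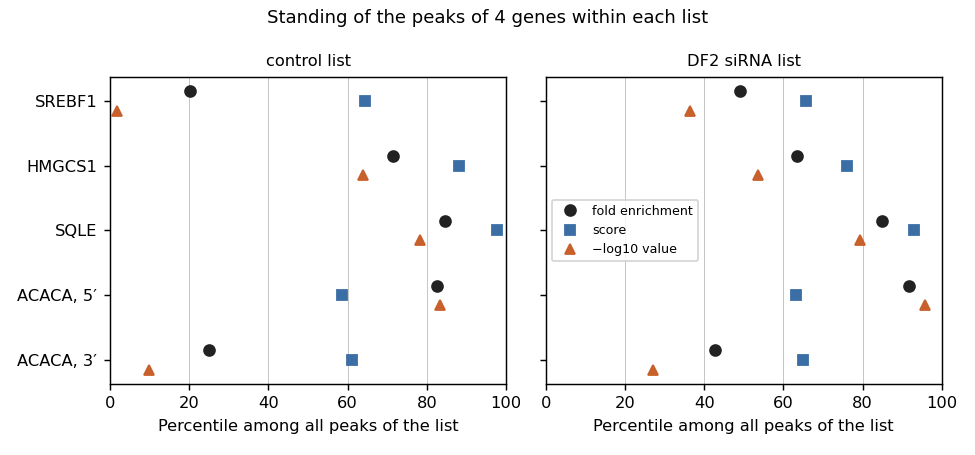
Percentile of each peak of SREBF1, HMGCS1, SQLE and ACACA among all peaks of its own list (x axis), by fold enrichment (black circles), score (blue squares) and −log10 value (orange triangles), for the control list (left) and the DF2 siRNA list (right). SREBF1 in control stands at 20.2 by fold enrichment and 64.3 by score, and SQLE stands at 78.2 or above on every scale in both lists.

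Every one of these peaks was found in both conditions. All 5 control peaks shared at least 1 base on the same strand with a DF2 siRNA peak (100%, exact 95% binomial interval 47.8 to 100%), against 71.9% of all control peaks. All 5 DF2 siRNA peaks shared bases with a control peak, against 87.5% of all DF2 siRNA peaks. Of the 5 pairs, 3 were identical in every block, and the other 2, of HMGCS1 and the 3′ end of ACACA, were 200 nt wider in DF2 siRNA. The peaks of the set had exonic lengths of 400, 600 or 800 nt, in steps of 200 nt. A difference of 200 nt is thus 1 step, and identical blocks show agreement no finer than a step. The total exonic length was 2800 nt in control and 3200 nt in DF2 siRNA. With 5 peaks in 4 genes, the interval reaches below both shares of all peaks and covers counting error only.

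By the order of fold enrichment in control, SQLE and the 5′ peak of ACACA (59.6 and 55.9) were followed by HMGCS1 (38.3), the 3′ peak of ACACA (11.3) and SREBF1 (10.4). In DF2 siRNA the order was the 5′ peak of ACACA (65.7), SQLE (48.7), HMGCS1 (24.7), SREBF1 (17.3) and the 3′ peak of ACACA (15.1). With 1 value per list there is no spread to say which neighbours in these orders differ. The median over the best peaks of the 4 genes was 47.1 in control and 36.7 in DF2 siRNA, against medians of 20.8 and 17.7 over all peaks. The corresponding median percentiles among all peaks were 77.0 and 74.1. All peaks include the weaker further peaks of genes with several. Among the best peaks of all genes the median percentiles were 67.6 in control and 65.7 in DF2 siRNA. In the plot of the best peak per gene, the 4 genes lie within the cloud of all genes.

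**Figure D3:**
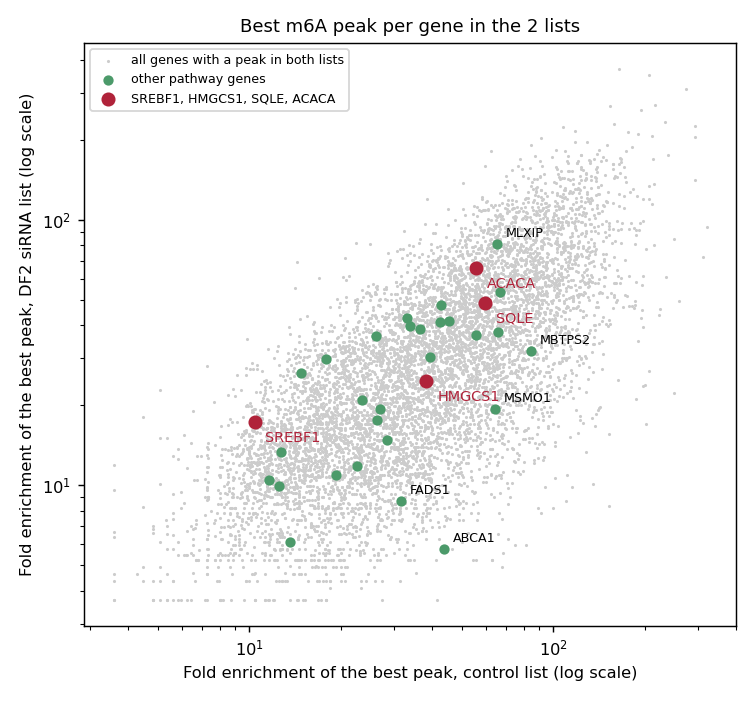
Fold enrichment of the best peak of each gene in the control list (x axis, log scale) and in the DF2 siRNA list (y axis, log scale), as deposited, for all genes with a peak in both lists (grey), the other sterol and fatty acid genes (green) and SREBF1, HMGCS1, SQLE and ACACA (red). SREBF1 is at 10.4 and 17.3, and ACACA is at 55.9 and 65.7.

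Most peaks of the set carried a 5′ UTR label. It was given to 4 of the 5 peaks in each list (80%, exact 95% binomial interval 28.4 to 99.5%), namely those of SREBF1, HMGCS1, SQLE and the 5′ peak of ACACA. Among all peaks it was given to 24.3% in control and 25.9% in DF2 siRNA. The labels 5′ UTR and coding without any other were given to 3 of 5 peaks in each list, against 7.6% of all peaks in control and 9.2% in DF2 siRNA. A stop codon label was given to 1 of 5 peaks in each list, that of HMGCS1 described above, against 42.7% and 43.7% of all peaks. The share with a stop codon or 3′ UTR label was 2 of 5, against 61.2% and 61.6%. These are 5 peaks of 4 genes, the same ones in both lists, and no test was made.

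**Figure D4:**
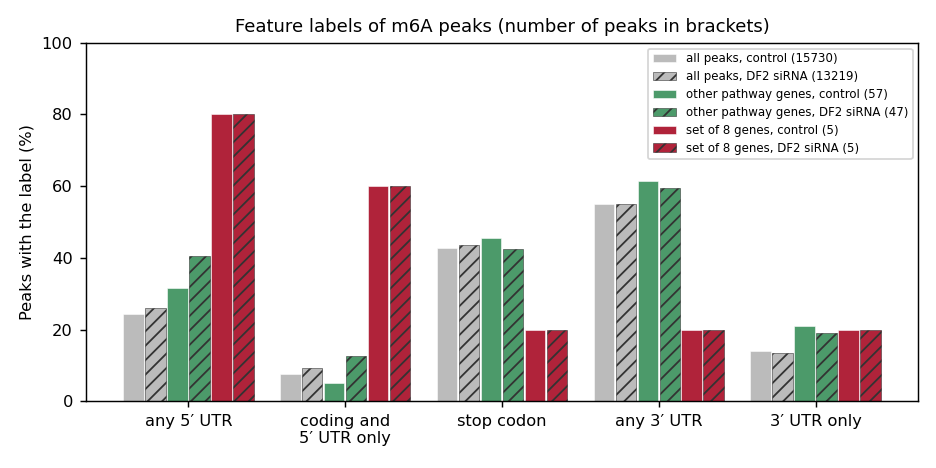
Share of peaks (y axis, percent) that carry each feature label of the authors, for all peaks (grey), the other sterol and fatty acid genes (green) and the set of 8 genes (red), in the control list (plain) and the DF2 siRNA list (hatched), with the number of peaks in brackets. A peak can carry several labels. The set of 8 genes has a 5′ UTR label in 80% of its 5 peaks per list, against 24.3% and 25.9% of all peaks.

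Other genes of the same pathways were described for context. Of 64 further genes, 28 were found with a peak in both lists (43.8%) and 27 in neither. A control peak alone was found in 7 (10.9%) and a DF2 siRNA peak alone in 2 (3.13%). A stop codon label was given to 45.6% of their 57 peaks in control and 42.6% of their 47 in DF2 siRNA. For a 5′ UTR label the shares were 31.6% and 40.4%. This 5′ UTR share differed between pathways, with 3 to 19 peaks per group and list. In fatty acid synthesis it was 6 of 12 (50%) in control and 4 of 7 (57.1%) in DF2 siRNA. For acyl-CoA synthetase genes it was 2 of 3 (66.7%) in each list. Shares were lower for sterol synthesis (31.6% and 42.9%), SREBP processing and sterol sensing (27.3% and 45.5%) and sterol uptake and export (8.33% and 16.7%). Across the 64 genes, DF2 siRNA peaks overlapped 39 of the 57 control peaks (68.4%, exact 95% binomial interval 54.8 to 80.1%).

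Among 18 further enzymes of sterol synthesis, 9 had a peak in both lists. The strongest in control were MSMO1, a methyl sterol oxidase, at a fold enrichment of 64.5 (DF2 siRNA list 19.3), and NSDHL, a sterol dehydrogenase, at 55.8 (DF2 siRNA list 36.9). In both genes the peak was at the stop codon. That of MSMO1 had 1000 nt in control and 400 nt in DF2 siRNA, and that of NSDHL had the same 600 nt in both lists. FDFT1, the squalene synthase that precedes SQLE, had a peak in control only (fold enrichment 10.7, score 516), as did the desaturase SC5D (12.8, score 261). The mevalonate decarboxylase MVD had a peak in DF2 siRNA only (16.4, score 111). These 3 genes stood below the median fold enrichment of their list, and the −log10 value of FDFT1 was 1.39, close to the minimum of 1.30.

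Peaks were found for 5 of 8 further genes of SREBP processing and sterol sensing, each time in both lists. In the pairs of fold enrichments that follow, the control value comes first, and the best peak of a gene can differ in extent between the lists. The protease genes stood high, MBTPS2 with 84.4 and 31.9 and MBTPS1 with 66.8 and 53.2. The glucose-sensing factor gene MLXIP had 65.1 and 80.8, for peaks of 1200 nt and 2200 nt. NR1H3, which encodes the oxysterol receptor LXR-alpha, had 45.3 and 41.6. Of 11 genes of sterol uptake and export, 7 had a peak in both lists. They included the ubiquitin ligase gene MYLIP (66.0 and 37.6). The endocytic receptor gene LRP1 had a peak in DF2 siRNA only (10.3, score 46).

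Of 22 further enzymes and helpers of fatty acid synthesis, 5 had a peak in both lists, 3 in control only and 14 in neither. With RefSeq names in place of those in the lists, the counts were 5 in control only and 12 in neither, since HACD1 and HACD3, enzymes of fatty acid elongation, have control peaks under older names. ACACB, the second acetyl-CoA carboxylase, had its best peak by fold enrichment in the 3′ UTR (33.2 in control and 42.7 in DF2 siRNA). A further control peak of ACACB (9.56) was labelled 5′ UTR, coding and stop codon. ACACA had its best peak by fold enrichment at the 5′ end, but by score its 3′ UTR peak was the higher one in both lists. MID1IP1, which encodes an activator of acetyl-CoA carboxylase, had 42.7 and 47.5. The elongase genes ELOVL3 (14.6, score 34) and ELOVL5 (14.4, score 719) and the reductase gene TECR (12.2, score 186) had a peak in control only. Their −log10 p-values were 5.26, 2.35 and 2.02, against a list minimum of 1.30. The TECR peak began 10441 bases upstream of the RefSeq gene. Among 5 acyl-CoA synthetase genes, both lists held a peak for 2, and ACSL4 had 1 in control only (4.83, score 5), which has no feature label and lay 11.8 kb outside the RefSeq gene. ABCA1, which exports cholesterol, and the desaturase gene FADS1 were named after their values were seen, since their pairs of values lay farthest apart by ratio. ABCA1 had 43.9 with a score of 77 in control and 5.76 with a score of 6 in DF2 siRNA, and FADS1 had 31.6 with a score of 70 and 8.70 with a score of 9. All 4 scores were below the list medians of 143 and 74.

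**Figure D5:**
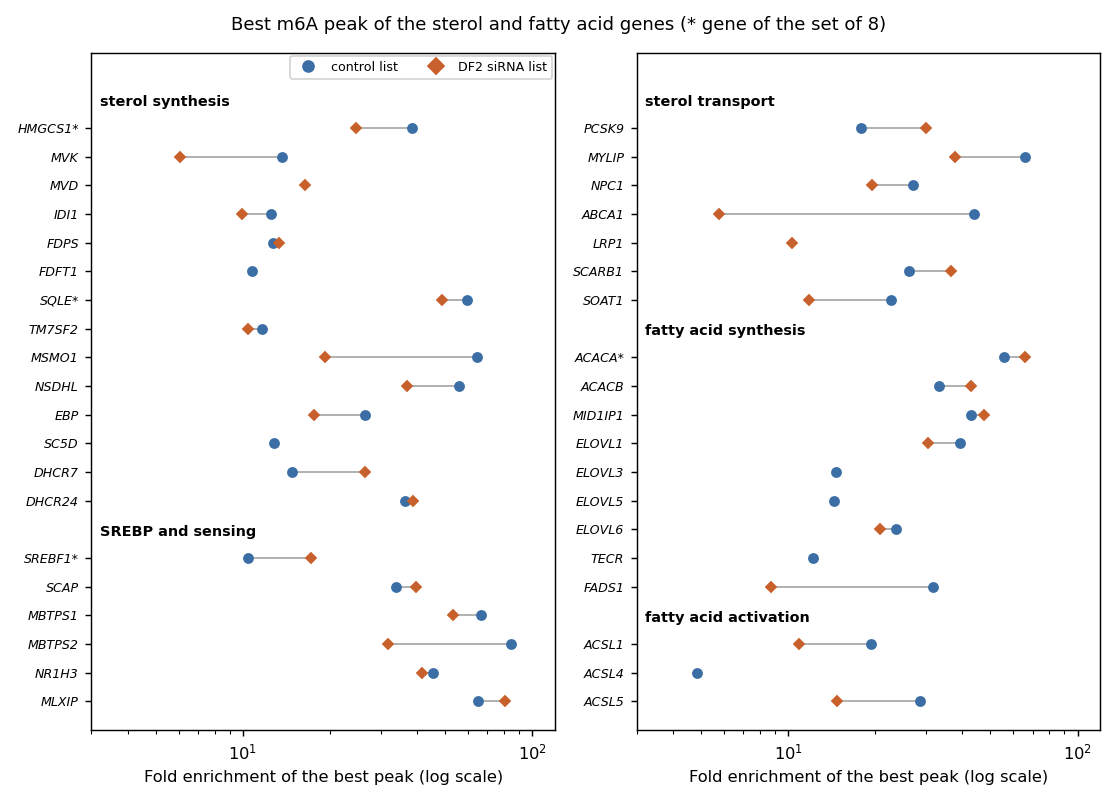
Fold enrichment of the best peak (x axis, log scale) of sterol and fatty acid genes with a peak, in the control list (blue circles) and the DF2 siRNA list (orange diamonds). Asterisks mark genes of the set of 8, lines join the values of a gene with a peak in both lists, and a single symbol is a gene with a peak in 1 list, such as FDFT1 at 10.7 in control and MVD at 16.4 in DF2 siRNA.

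The other genes nearest to the set were taken by the distance between their pair of fold enrichment percentiles, over 2 lists, and the median pair of SREBF1, HMGCS1, SQLE and ACACA (77.0 and 74.1). They were the elongase gene ELOVL1 (72.2 and 70.8), NSDHL (82.5 and 77.4) and NR1H3 (76.4 and 80.7). A pair of values is a thin basis for likeness. A peak covered some of the first 50 bases after a RefSeq start in 2 genes of the set in control and 3 in DF2 siRNA, and in 11 and 12 of the 64 further genes. In control, 0 of the 2 genes of the set and 3 of the 11 held GGAC in the covered bases, and 1 of the 2 and 3 of the 11 held GAAC. In DF2 siRNA, 1 of 3 and 1 of 12 held GGAC, and 1 of 3 and 3 of 12 held GAAC.

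The lists were also checked for the labelled cell type, although a peak is no measure of expression. Both lists held peaks for 3 of 8 osteoblast and bone genes, including RUNX2 and COL1A1. None of 6 hepatocyte genes and none of 5 epithelial genes had a peak, and 1 of 6 adipocyte genes did (PPARG). Of 5 blood cell genes 2 had a peak, each in 1 list only, among them CD68 in DF2 siRNA (fold enrichment 6.92).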

How the data were processed

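The submitters' processing notes name HISAT2 and hg38. The sources used here do not name the peak caller, its settings, the annotation or the strandedness. The authors deposited 1 list per condition with, per the file headers, a fold enrichment (a ratio per peak), a score (whole numbers of at least 3) and a −log10 value (p-value for control, FDR for DF2 siRNA). Depth is unknown.

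Block sizes of minus strand peaks were read in reverse order, since only then did the last block end at the deposited peak end in all 7046 control and 5928 DF2 siRNA peaks with several blocks. Coordinates are counted from 1. Overlap means at least 1 shared exonic base on the same strand. Percentiles are the share of peaks of the same list with a lower value. Gene ends and start windows came from RefSeq (GRCh38.p14), and 6 of the 8 genes had a start window. The 2 cores were chosen after the windows were seen. Motif counts in whole peaks were planned but not analysed here.

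The 8 genes, the pathway and marker lists and the comparisons were chosen with earlier results of these data known. Named were the 8 genes, every further pathway gene found in 1 list only, the 6 with the highest fold enrichment in each list and the 3 nearest in percentiles. Some genes that this rule selects are not reported here. Alternatives were stricter limits, equal list lengths, RefSeq names, other overlaps, rankings, label orders and widths, and, added after the data were seen, block sizes in file order. The overlap procedure was tested on simulated data. Intervals are exact (Clopper-Pearson) and cover counting error only. Python 3.11.15, pandas 2.3.3, numpy 2.4.6, scipy 1.17.1 and matplotlib 3.10.9 were used.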

Additional observations from a re-analysis of the deposited data

How the results depend on the processing

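No paired analysis was possible because each condition has 1 list and no values of single libraries. For the same reason no library could be left out. The 4 genes with a peak in both lists were 3 when only the upper 50% of each list by fold enrichment was kept, and also 3 with a −log10 value at least 2 above the list's minimum. They were 4 with equal list lengths and with RefSeq names. All peaks of the set that were kept overlapped between the lists under every overlap rule and limit tried. The median percentiles of the best peaks, 77.0 in control and 74.1 in DF2 siRNA, were 76.3 and 70.9 by score, 71.1 and 66.4 by −log10 value, and 67.6 and 65.7 among the best peaks of all genes. Among peaks of 0.5 to 2 times the length the control value was 80.4. The count of peaks with a stop codon label, 1 per list, was 0 in both lists with coding first in the order of labels, and 0 in DF2 siRNA among peaks of at most 600 nt, which leaves out HMGCS1. Of 72 pathway genes, the 8 included, 32 had a peak in both lists, and 19 did in the upper 50% by fold enrichment, where fewer peaks are counted. The 2 in DF2 siRNA only were 1 under the −log10 limit. With RefSeq names, 9 genes in place of 7 had a peak in control only, since HACD1 and HACD3 are listed under older names (fold enrichments 11.2 and 13.0). Peaks near the lists' limits, such as that of SREBF1 in control, depend on a depth that is unknown.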

Other observations

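Block sizes and block starts run in opposite directions on the minus strand of both lists. Read in the order of the file, the last block ended at the deposited peak end in 3128 of 7046 peaks with several blocks on that strand in control and in 3068 of 5928 in DF2 siRNA. Read in reverse, it did so in all of them, as it did in file order for all 7448 and 6232 such peaks on the plus strand. SREBF1, HMGCS1 and ACACA are on the minus strand. In file order their small and large blocks would be exchanged, so the sizes given above depend on this reading, although the overlap of all 5 pairs does not.

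The peaks of ACACA are numbered 0 and 2 in both lists. Such gaps in the numbering occurred in 2259 of 9971 control genes and 1964 of 8556 DF2 siRNA genes.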
